A study of Mus musculus with 12 samples.

Results

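The 9 chemokine receptor genes described here are Ccr1, Ccr2, Ccr3, Ccr7, Ccr8, Cxcr4, Cxcr6, Cx3cr1 and Ackr3. Their N6-methyladenosine (m6A) peaks were taken from 2 peak lists of mouse lung, as every peak that the lists assign to a member by name or that was called on a member's gene identifier. This gave 19 of the 27292 peaks of the OVA group's list, 20 of the 26102 peaks of the PBS group's list and 9 of the 17612 genes with a peak in either list. The lungs came from female BALB/c mice of 6 to 8 weeks. Mice of the OVA group, a model of acute allergic asthma, were injected into the peritoneum on days 0 and 7 with 0.2 ml of PBS holding ovalbumin at 20 μg/ml and aluminum hydroxide at 2 mg/ml, and breathed nebulized 3% ovalbumin for 30 min a day from day 14 to day 20. Mice of the PBS group, the controls, had PBS alone at each of these steps. Tissue was collected on the next day, after a test of the airways with inhaled methacholine.

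Each of 3 biological replicates per group gave 1 library from RNA fragments bound by an antibody against m6A (IP). Each also gave 1 input library made without it, for 12 libraries in all. A peak is a stretch of exons enriched in IP over input reads, and its fold enrichment is that ratio. The lists hold 1 value per peak for a whole group and none for a single replicate. No difference described here thus has a replicate check, an error or a test, and values are set side by side as a description. The study reports its own test for differentially methylated peaks between the groups, which was not used here. The lists give no read numbers per peak and no RNA level. In whole lung, fewer cells of a type and less RNA per cell cannot be told apart.

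Chemokines are small secreted proteins that guide leukocytes along gradients, and their receptors span the cell membrane and mostly signal through inhibitory G proteins. Which receptors a cell carries sets which tissues it can enter: inflammatory receptors bring monocytes, eosinophils and effector T cells to inflamed airways, and homing receptors take dendritic cells and lymphocytes to lymphoid organs. The m6A mark is placed on adenosines of messenger RNA within a short consensus sequence, often near the stop codon, and is known to affect the stability and translation of the RNA.

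All 9 receptors had at least 1 peak in each list. Of all 17612 genes with a peak in either list, 10.2% had one in the OVA list alone and 6.95% in the PBS list alone. Of the member peaks of the OVA list, 4 of 19 (21.1%) shared no exonic base with a PBS peak, beside 19.4% of all OVA peaks. Of those of the PBS list, 2 of 20 (10.0%) shared none with an OVA peak, beside 14.5% of all PBS peaks. With any shared exonic base counted, the shares of the members lay near those of all peaks in both directions. The 4 OVA peaks lay on Ccr2 (2 peaks), Ccr8 and Cx3cr1, and the 2 PBS peaks on Cx3cr1 and Ackr3, so that every receptor with such a peak also had shared ones. With an overlap of 50% of both peaks required, 42.1% of the OVA and 45.0% of the PBS member peaks had no counterpart. The shares of all peaks were then 31.4% and 28.3%.

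The member peaks were also near the middle of their lists in fold enrichment. Their median was 5.53 in the OVA list, beside 5.59 for all OVA peaks, and 5.67 in the PBS list, beside 5.44 for all PBS peaks. Within a list the members spread widely, from 1.59 on Ccr2 to 24.0 on Ccr7 in OVA and from 1.62 on Cxcr6 to 20.5 on Ccr7 in PBS. By their highest peak, the receptors in order were Ccr7, Cx3cr1, Cxcr6, Ccr2, Cxcr4, Ccr3, Ccr1, Ackr3 and Ccr8 in OVA and Ccr7, Cx3cr1, Ccr2, Ackr3, Cxcr4, Cxcr6, Ccr1, Ccr3 and Ccr8 in PBS. Ccr7, Cx3cr1, Cxcr4, Ccr1 and Ccr8 held the same places in both. With no replicates, it was not tested which neighbours in these orders differ.

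Peaks of the lists were paired where each was the other's largest overlap, which gave 15 pairs on the receptors and 20532 in all. Fold enrichment was higher in the OVA list in 9 of the 15 pairs, lower in 5 and equal in 1 at the digits deposited. Over all pairs it was higher in 61.4%, and the median ratio of OVA over PBS was 1.10, or 0.13 on the log2 scale. Against that median, 8 of the 15 receptor pairs were higher and 7 lower. A ratio of at least 2 was found in 2 receptor pairs, on Cxcr6 and Ccr3, beside 7.77% of all pairs, and the opposite in 1, on Ccr2, beside 4.93%. Relative to the median ratio, 0 receptor pairs were at least 2 times higher in OVA, beside 6.11% of all pairs, and the Ccr2 pair was still at least 2 times higher in PBS, beside 6.09%. Each enrichment was computed within its own list and over the peak's own bounds, so a ratio compares the same bases only where the bounds are alike.

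**Figure D1:**
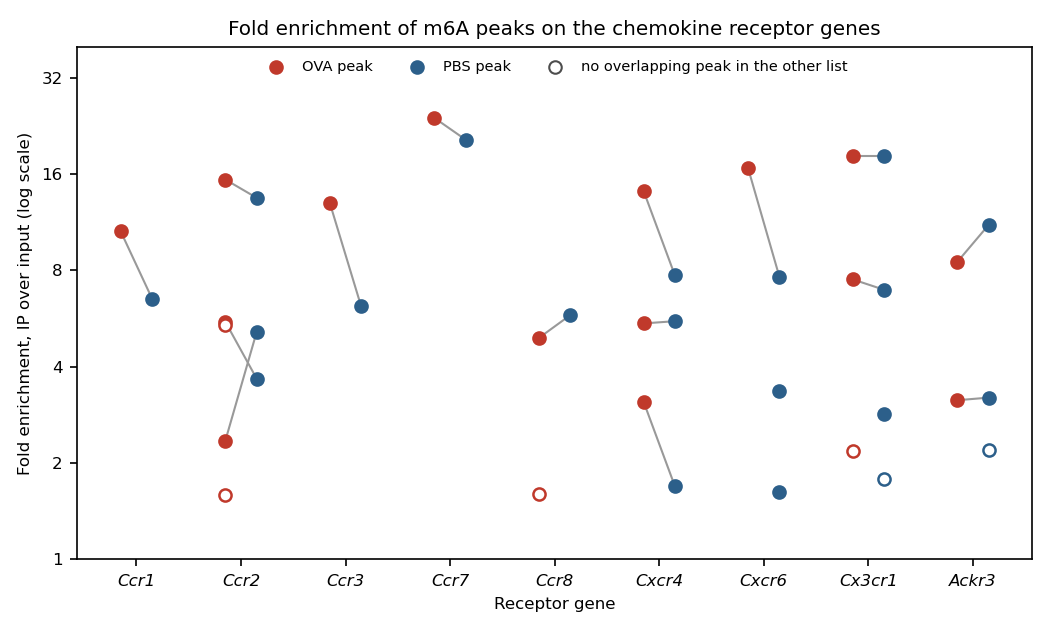
Fold enrichment of IP over input (log scale) for every m6A peak on the 9 receptor genes, with OVA peaks in red, PBS peaks in blue and lines joining paired peaks; each point is the authors' value for a whole group. Open circles, 4 of OVA and 2 of PBS, have no overlapping peak in the other list, and among these receptors Ccr7 holds the highest peak of both lists at 24.0 and 20.5.

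The lists also differed in how much of a transcript the peaks covered. This measure, the summed exonic length inside the peaks of a gene, was chosen after the lists had been seen. The lists give no RNA level and no read numbers per peak, so the part of either in the covered length was not tested. The OVA list covered more bases than the PBS list on 7 of the 9 receptors, with a median ratio of 1.16. Over the 12251 genes with called peaks in both lists, 55.8% had more covered bases in the OVA list and the median ratio was 1.04. A ratio of at least 2 was found for 2 of the 9 receptors, Ccr3 and Ccr8, beside 5.90% of all genes, and 0 of the 9 had at least 2 times more covered bases in the PBS list, beside 3.21%. Among peaks with an FDR under 0.05, 1 receptor, Ccr3, had a ratio of at least 2. Among peaks with a fold enrichment of at least 2, Ccr8 stood at 1.92, and Ccr3 and Cxcr6 had such a ratio. Cxcr6 passed only because this filter drops its PBS peak of 180 bp with a fold enrichment of 1.62. That left 1933 bp in OVA and 865 bp in PBS. No share of all genes is given under either filter.

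Ccr3, the receptor for eotaxins through which eosinophils are drawn into allergic tissue, had the widest gap. Its OVA peak at chr9:124028714-124030589 was 1876 bp long, had a fold enrichment of 13.0 and was annotated to the 3' UTR. Its PBS peak, at chr9:124029041-124029102 inside the bounds of the OVA peak, was 62 bp long, had a fold enrichment of 6.17 and was annotated to an exon. The covered length thus differed by 30.3 times, and the caller's score, the log10 of the p value of a peak, was -254 in OVA and -2.70 in PBS. The part of RNA level or read numbers in this gap was not tested. In enrichment the OVA peak stood at the 79.8th percentile of its list and the PBS peak at the 54.5th. Their ratio of 2.11 became 1.92 relative to the median of all pairs, and the shared bases made up 3.30% of the OVA peak, so it sets a wide peak against a narrow one.

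Ccr8, carried by type 2 helper and regulatory T cells, had weaker peaks, and its annotation differed between the lists. The OVA list had a peak of 2 exonic blocks, 76 and 602 bp long, from chr9:120092113 to 120094407, with a fold enrichment of 4.92. A second OVA peak of 60 bp at chr9:120094465-120094524 had a fold enrichment of 1.60, a log10 FDR of -1.21, which is above an FDR of 0.05, and no PBS counterpart. The only PBS peak, at chr9:120094083-120094436, was 354 bp long with a fold enrichment of 5.80, higher than that of the OVA peak it overlaps by 325 bp. The covered length was 738 bp in OVA and 354 bp in PBS, a ratio of 2.08, which was 1.92 over peaks with a fold enrichment of at least 2. Both the PBS peak and the second OVA peak were called on Ccr8 but assigned by the authors' annotation to Gm47050, an unconfirmed overlapping gene model, so that by assigned name alone Ccr8 has a peak in the OVA list only.

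Ccr1, a receptor of monocytes and neutrophils for several inflammatory chemokines, had 1 peak in each list, with the same 2 exons covered. The OVA peak ran from chr9:123963017 to 123968692 with blocks of 1542 and 399 bp, and the PBS peak from chr9:123963137 to 123968603 with blocks of 1422 and 310 bp. The PBS peak lay within the OVA peak and shared all of its 1732 exonic bases with it. Fold enrichment was 10.6 in OVA and 6.53 in PBS, the 72.2nd and 56.3rd percentiles, with log10 p values of -1130 and -118. The ratio was 1.62, and 1.48 relative to the median of all pairs.

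Ccr2, the receptor for Ccl2 that brings monocytes out of the bone marrow and into tissue, had 5 peaks in OVA and 3 in PBS. Its strongest peak started at the same base in both lists, chr9:124105676, and ended at 124106844 in OVA and at 124106754 in PBS. The fold enrichments there were 15.4 and 13.5, and the annotation placed the OVA peak in the 3' UTR and the PBS peak in the 5' UTR although 92.3% of the OVA peak was shared. Next along the transcript, a peak of 212 bp with a fold enrichment of 5.53 in OVA enclosed a PBS peak of 92 bp with 3.67. The OVA list alone had a peak at chr9:124103414-124103804, of 391 bp, in the 5' UTR, with a fold enrichment of 5.39, and a weak one at chr9:124109295-124109446 with 1.59.

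The weak peak began 155 bp after the end of Ccr2 in RefSeq. A further Ccr2 peak of both lists began 3788 bp after it, at chr9:124112928, and was annotated to the 3' UTR of a longer transcript. This distant peak was the 1 pair with at least 2 times more enrichment in the PBS list, at 2.34 in OVA and 5.13 in PBS, although the OVA peak was longer, at 331 against 241 bp, and had the lower log10 p, -11.1 against -4.74. How reads that map to more than 1 gene were treated is not stated, so peaks of receptors with similar sequences are uncertain to that extent.

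**Figure D2:**
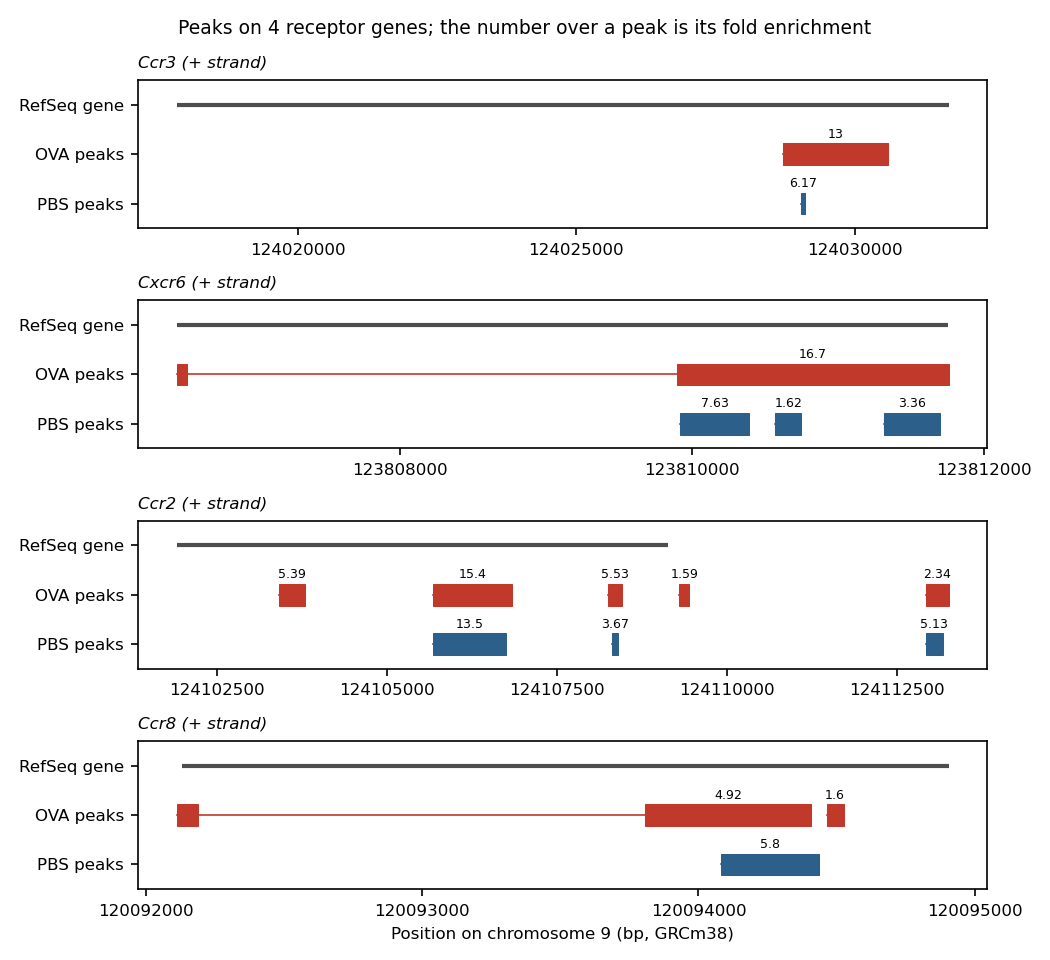
Position of the peaks on Ccr3, Cxcr6, Ccr2 and Ccr8 along chromosome 9 (bp, GRCm38), with the RefSeq gene as a grey line, OVA peaks in red, PBS peaks in blue, thick boxes for exonic blocks and thin lines for the introns between blocks of a peak. The Ccr3 peak covers 1876 bp in OVA and 62 bp in PBS, and 1 OVA peak of Cxcr6 spans the places of 3 PBS peaks.

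Ccr7, which guides dendritic cells and naive T cells to lymph nodes along Ccl19 and Ccl21, had the highest fold enrichment of the receptors in both lists. Each list had 1 peak there, in the 3' UTR, ending at the same base, at chr11:99144345-99145214 in OVA and chr11:99144405-99145214 in PBS. The fold enrichments of 24.0 and 20.5 stood at the 95.0th and 93.6th percentiles. The ratio was 1.17, and 1.07 relative to the median of all pairs, and the PBS peak had the lower log10 p, at -644 against -588.

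Cxcr4, the widely expressed receptor for Cxcl12, had 3 peaks in each list, which paired off. The peak at chr1:128588702-128589028 in the 3' UTR had a fold enrichment of 14.2 in OVA and its PBS counterpart, at chr1:128588731-128588999, 7.72. A smaller 3' UTR peak that starts at chr1:128588405 in both lists had 3.11 and 1.69. Both of these pairs had a ratio of 1.84, and of 1.68 relative to the median of all pairs. The third pair, of 2 exonic blocks that reach the 5' end of the transcript, ended at the same base, chr1:128592293, and had fold enrichments of 5.46 in OVA and 5.55 in PBS. The annotation gives it as 5' UTR, though 667 of its 773 exonic bases in the OVA list lie in the block away from the transcript start.

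Cxcr6, a receptor for Cxcl16 on effector and resident memory T cells, differed in the number of peaks. The OVA list had a peak of 2 blocks, 72 and 1861 bp, from chr9:123806474 to 123811760, which spans the RefSeq gene from 3 bp before its start to 6 bp past its end. The PBS list had 3 separate peaks within it, at chr9:123809918-123810394, chr9:123810571-123810750 and chr9:123811314-123811701. Fold enrichment was 16.7 for the OVA peak and 7.63, 1.62 and 3.36 for the PBS peaks in that order. The OVA peak covered 1933 bp and the PBS peaks together 1045 bp, a ratio of 1.85. Its best-overlapping PBS peak gave an enrichment ratio of 2.19, or 1.99 relative to the median of all pairs, and covered 24.7% of it.

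Cx3cr1, the receptor for fractalkine on patrolling monocytes and tissue macrophages, had the same highest value in the lists at the digits deposited. Its strongest peak had a fold enrichment of 18.2 in both, at chr9:120050668-120051743 in OVA and chr9:120050549-120051385 in PBS. The OVA peak also overlapped a second PBS peak of 2.84 at chr9:120051474-120051743, and a further pair that starts at chr9:120051862 had 7.50 in OVA and 6.96 in PBS. Relative to the median of all pairs these 2 paired peaks had ratios of 0.911 and 0.982, so the OVA value of the second was higher as deposited and lower after centring. Each list had 1 weak 3' UTR peak of 122 bp that the other lacked, at chr9:120048938-120049059 with 2.18 in OVA and at chr9:120050191-120050312 with 1.78 in PBS. The covered length was 1528 bp in OVA and 1529 bp in PBS.

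Ackr3, an atypical receptor that takes up Cxcl12 and Cxcl11 and does not signal through G proteins, had lower OVA values in both of its pairs. Its 3' UTR peak had identical bounds in the lists, chr1:90214688-90215436, the only such pair among the receptors, with a fold enrichment of 8.50 in OVA and 11.1 in PBS. The ratio was 0.766, and 0.698 relative to the median of all pairs. A second pair, at chr1:90213821-90214241 in the OVA list, had 3.14 and 3.20. The PBS list also had a weak peak of 2 blocks from chr1:90204009 to 90209719 in the 5' UTR, with 2.19 and no OVA counterpart. The covered length was 1170 bp in OVA and 1353 bp in PBS.

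**Figure D3:**
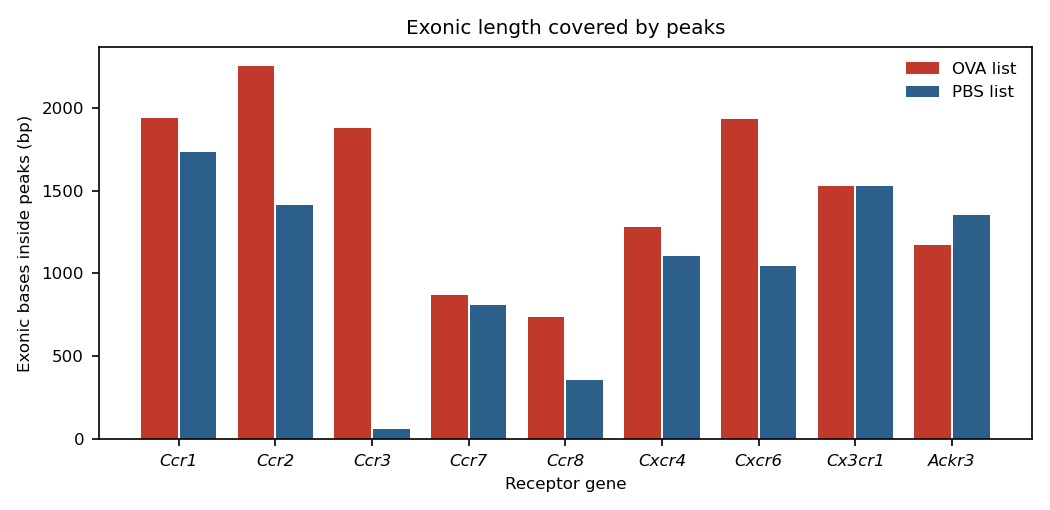
Summed exonic length (bp) inside the peaks of each receptor gene, with a red bar for the OVA list and a blue bar for the PBS list; each bar is 1 value for a whole group. The bars of Ccr3 stand at 1876 and 62 bp, and those of Cx3cr1 at 1528 and 1529 bp.

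By the authors' annotation, 13 of 19 OVA peaks (68.4%) and 10 of 20 PBS peaks (50.0%) on the receptors lay in 3' UTRs, beside 52.7% of all peaks in each list. In 5' UTRs lay 3 OVA peaks (15.8%) and 5 PBS peaks (25.0%), beside 11.6% and 11.4% of all peaks, and in other exons 3 (15.8%) and 5 (25.0%), beside 35.7% and 35.9%. A shared stretch may carry different names in the lists, as on Ccr2 and Ccr3, so these counts follow peak bounds as well as position. Of the 9 genes, 6 are on chromosome 9, with Cx3cr1 and Ccr8 within 46224 bp and Cxcr6, Ccr1, Ccr3 and Ccr2 within 302664 bp, and the others are Cxcr4 and Ackr3 on chromosome 1 and Ccr7 on chromosome 11.

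At the 5' end, peaks reached the first 50 transcribed bases of 4 receptors in the OVA list (Ccr1, Ccr8, Cxcr4 and Cxcr6) and of 2 in the PBS list (Cxcr4 and Ackr3), among the 8 receptors matched in the RefSeq table of gene starts on GRCm38.p6. Over the 7586 genes with a single start in that table and a peak in both lists, OVA peaks reached these bases in 11.1% and PBS peaks in 10.2%, a background computed after the lists had been seen. Only Cxcr4 was reached in both, with 44 of the 50 bases in each list. These bases were searched on the transcribed strand alone for the 5-base m6A consensus, which is A, G or T, then A or G, then AC, then A, C or T. The windows of 7 of the 8 receptors held it, beside 54.4% of all 32851 windows of this length. Those of Ccr2 and Ccr3 start at chr9:124102183 and chr9:124021971, inside the RefSeq gene bounds, which begin at 124101918 and 124017825. The Ccr3 window, with 3 matches, is among the 7. A match is a description of the letters and not a mapped site. The following stretches lie inside the peaks, and are shown because these 5' ends were covered in 1 list alone, except on Cxcr4. They run 5′ to 3′ on the transcribed strand, with capitals for the match nearest the transcript start within the peak, from chr9:123968663-123968692 (minus strand) for Ccr1, chr9:120092144-120092173 (plus) for Ccr8, chr9:123806477-123806506 (plus) for Cxcr6, chr1:128592250-128592279 (minus) for Cxcr4 and chr1:90204009-90204029 (plus) for Ackr3. The Cxcr6 window held 3 matches inside the peak, of which 1 is marked.
Ccr1: atgagtcctagGAACAgctcattgtcacac
Ccr8: tgggcagctctgAAACCtcagaagaaaggc
Cxcr6: agaGAACCagaggcagacctttagtgagca
Cxcr4: caggtagcagtgAAACCtctgaggcgtttg
Ackr3: tgctacAAACTgctcagcact

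Other genes of the chemokine system were read from fixed lists. Of 14 other receptors, which are chemokine receptors and the chemokine-like receptor Cmklr1, 13 had a peak in both lists. The remaining 1, Cxcr1, had it in the PBS list alone, at chr1:74192618-74192679 with a fold enrichment of 2.44. Among all genes with a peak in either list, 6.95% had it in the PBS list alone and 10.2% in the OVA list alone. By their highest peak, the first 3 receptors of this list were Cxcr2, Ccr4 and Ackr2 in OVA and Cxcr2, Ackr2 and Ackr4 in PBS. The values were those of Cxcr2, a neutrophil receptor, with fold enrichments of 48.8 in OVA and 40.5 in PBS, Ccr4, a type 2 helper T cell receptor, with 21.8 and 11.6, the atypical Ackr2 with 20.7 and 25.7 and the atypical Ackr4 with 15.2 and 16.6. The Ccr4 values are over unlike bounds, chr9:114491029-114492932 in OVA and chr9:114491385-114491743 in PBS. The highest Cxcr2 values were above those of all 9 members in either list. Over this list, 2 of 30 OVA peaks (6.67%) and 2 of 31 PBS peaks (6.45%) had no counterpart, beside 19.4% and 14.5% of all peaks. Cmklr1 held 5 of the peaks in each list, 0 of them without a counterpart.

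Of 19 genes of ligands of the 9 receptors, 5 had a peak in both lists, 5 in the OVA list alone, 0 in the PBS list alone and 9 in neither, and a gene without a peak is not one without RNA. The 5 in the OVA list alone made up 50.0% of the 10 with a peak, beside 10.2% of all genes. They were the Ccr2 ligand Ccl2 with a fold enrichment of 4.40, the Ccr8 ligand Ccl8 with 3.32, the Ccr1 ligand Ccl9 with 1.97, the Ccr3 ligand Ccl24 with 5.17 for its higher peak, and the Cxcr6 ligand Cxcl16 with 6.14. The highest Cxcl16 peak was called on the neighbouring Zmynd15 and overlapped a PBS peak of that gene, so 3 of its 4 OVA peaks had no counterpart. The strongest ligand peaks in both lists were those of Cx3cl1, at 10.6 in OVA and 10.8 in PBS, and Cxcl12, at 9.12 and 8.21. The third in the PBS list was that of the eotaxin Ccl11, at 7.50, beside 4.65 in the OVA list. These Ccl11 peaks had unlike bounds, with 265 exonic bases in PBS and 676 in OVA.

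Of 30 genes that act downstream of the receptors, 26 had a peak in both lists, 1 in the OVA list alone and 3 (Grk6, Rgs18 and Rac2) in neither. The 1 was Gng2, a G protein subunit, with a fold enrichment of 1.63 for a peak assigned to the neighbouring Rtraf. It made up 3.70% of the genes of this list with a peak, beside 10.2% of all genes. In the PBS list alone were 0, beside 6.95% of all genes. Of the peaks, 9 of 50 in OVA (18.0%) and 4 of 44 in PBS (9.09%) had no counterpart, beside 19.4% and 14.5% of all peaks. By their highest peak, the first 3 of these genes were Rgs1, Grk2 and Pik3cg in OVA and Grk2, Ptk2b and Tiam1 in PBS. The values were those of Rgs1, an inhibitor of G protein signalling in lymphocytes, with 25.5 in OVA and 14.1 in PBS, Grk2, a kinase that desensitizes receptors, with 23.1 and 36.2, the lipid kinase subunit Pik3cg with 21.0 and 16.4 and the kinase Ptk2b with 15.9 and 19.5. The exchange factor Tiam1 had 19.8 and 19.1, at peaks that do not overlap. The order of the lists was thus not uniform, with Rgs1 and Pik3cg higher in OVA and Grk2 and Ptk2b higher in PBS.

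Marker genes of lung and blood cells were read only for whether they had a peak. Markers of endothelium (3 of 3 genes), fibroblasts (2 of 2) and leukocytes as a whole (Ptprc) had one in both lists, and so did 4 of 5 epithelial genes, all but Sftpc. Of 4 T cell genes, Cd3e, Cd4 and Il7r had peaks in both lists and Cd8a in the OVA list alone. Among eosinophil genes, Il5ra had peaks in both lists and Siglecf, Epx and Prg2 in neither. Among neutrophil genes, Csf3r had peaks in both, S100a8 in the PBS list alone and Ly6g in neither. The mast cell gene Mcpt4 had a peak in the OVA list alone and Cpa3 in neither, the B cell gene Ms4a1 in both and Cd79a in neither. Mrc1, Itgam and Csf1r of macrophages and monocytes and Itgax and Flt3 of dendritic cells had peaks in both, and Adgre1 and Cd209a in neither. Beside these markers, 10.2% of all genes with a peak in either list had it in the OVA list alone and 6.95% in the PBS list alone. Peaks are no measure of RNA level or of cell number, and the part of the cell makeup in the receptor peaks was not tested.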

How the data were processed

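The authors removed adapters and poor sequence with FASTP, aligned reads with HISAT2 to the Ensembl mouse genome, called peaks in exomePeak and used ChIPseeker for annotation (software versions not given in the sources used here). The way in which 3 replicates became 1 list is not stated. The deposited fold enrichment is the authors' ratio of IP over input in a peak, and the deposited score is the log10 of its p or FDR, with minus infinity written for some peaks. Coordinates follow the lists, with 1 as the first base, and RefSeq positions are those of GRCm38.p6. Protocol values are from the study's methods.

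A deposited block size is end minus start, so 1 base was added to each. Called gene identifiers were matched to symbols for 27259 OVA and 26070 PBS peaks. Peaks were compared by at least 1 shared exonic base. The overlap had been planned within strand, but the lists give no strand of a peak, so strand was not used. A percentile is the percent of peaks of the same list with a lower value, ties counted as 0.5. The main counts use every listed peak, and alternatives varied the peak filter, gene assignment, overlap and scale. Beside the members, fold enrichments are given for genes of the receptor, ligand and signalling lists that had a peak in 1 list alone or were among the 3 most enriched in either list, and cell markers are named by presence of a peak only. Of the fixed lists, 2 genes are not reported here and enter no count of a list. The members and lists were chosen with earlier results of these data known. No test was run, since the lists hold no values of single mice. Read depth per peak is unknown, so no interval is given. Python 3.11.15, numpy 2.4.6, pandas 2.3.3 and matplotlib 3.10.9 were used, and the overlap code was tested on simulated data.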

Additional observations from a re-analysis of the deposited data

How the results depend on the processing

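Of 35 alternative values, 27 lay within 1.5 times of the value reported. The stricter overlaps moved the counts of peaks without a counterpart most: with an overlap of 50% of both peaks they were 8 of 19 in OVA (42.1%) and 9 of 20 in PBS (45.0%), beside 31.4% and 28.3% of all peaks under that rule. With identical start and end they were 18 (94.7%) and 19 (95.0%), beside 89.7% and 89.3%. With a fold enrichment of at least 2 in both lists, 3 of 17 OVA and 1 of 17 PBS member peaks had no counterpart. No share of all peaks is given under that filter. By assigned gene name alone, 8 receptors had a peak in both lists, since Ccr8 then had none in the PBS list. The median percentile of the member peaks was 49.7 in OVA and 51.4 in PBS, and 47.2 and 49.1 among peaks assigned to protein-coding transcripts. Pairs at least 2 times higher in OVA fell from 2 to 0 both after centring and among the 11 pairs that overlap by 50%, while 1 pair stayed at least 2 times higher in PBS. No share of all pairs is given for the 50% overlap. Of alternatives chosen after the data were seen, an FDR under 0.05 left 1 receptor, Ccr3, with at least 2 times more covered bases in OVA. A fold enrichment of at least 2 gave 2, Ccr3 with a ratio of 30.3 and Cxcr6 with 2.23. Cxcr6 rose from 1.85 because its PBS peak with a fold enrichment of 1.62 was dropped, and Ccr8 fell to 1.92. No share of all genes is given under these filters. No paired analysis was possible because the lists hold no values of single mice. Leaving out a replicate was not possible for the same reason.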

Other observations

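The lists' own KEGG annotation was also read, a choice made after the data were seen. Of 118 genes that it places in the chemokine signaling pathway, 102 had a peak in both lists, 12 in the OVA list alone (10.2%) and 4 in the PBS list alone (3.39%). Of all genes with a peak, 10.2% had it in the OVA list alone and 6.95% in the PBS list alone. The OVA list had 251 peaks on these genes, 50 of them (19.9%) without a PBS counterpart, and the PBS list 222, 16 of them (7.21%) without an OVA counterpart, beside 19.4% and 14.5% of all peaks. The genes were drawn from the lists, so each had a peak by choice.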
